A study of Mus musculus with 4 samples.

Results

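ERK feedback and immediate early genes were examined as a transcript readout of ERK activity in 32Dcl3-Abl1ko cells growing with or without IL-3. The 10 genes, out of 23756 in the deposited tables, were picked by symbol and not by their values: the dual specificity phosphatases Dusp1, Dusp2, Dusp5 and Dusp6, the Sprouty genes Spry1 and Spry2, the Spred genes Spred1 and Spred2, and the transcription factors Egr1 and Fos. All 10 were found. 32Dcl3 is a murine hematopoietic line that normally needs IL-3 to survive. Both groups carry a CRISPR/Cas9 edit of Abl1 delivered with lentiviral guide RNAs, and 2 single clones were kept for the study, so the edit is shared by controls and cells without IL-3. The Abl1ko/IL3+ group was grown with IL-3 and the Abl1ko/IL3- group, IL-3 having been withdrawn gradually, without it, with 2 libraries each. The paper describes the Abl1ko/IL3- cells as IL-3-independent cells that arose from the edited populations. The absence of IL-3 and the outgrowth of such cells therefore cannot be told apart in this comparison. The labels do not give a time or tie a library to a clone or guide, and cells with unedited Abl1 were not analysed here.

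ERK is the last kinase of the RAS-RAF-MEK-ERK cascade, which the IL-3 receptor engages through RAS. Active ERK phosphorylates transcription factors that switch on immediate early genes such as Fos and Egr1 within minutes, without new protein synthesis. It also induces its own brakes: DUSP5 and DUSP6 dephosphorylate ERK in the nucleus and the cytoplasm, DUSP1 and DUSP2 are nuclear phosphatases that act on several MAP kinases, and Sprouty and Spred proteins act upstream on RAS and RAF. The level of these transcripts is therefore often read as a record of recent ERK activity, although other pathways also act on each gene.

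The promoters shown are of 3 genes whose windows hold the SRF or CREB letters through which ERK signals are known to reach such genes. The Spred2 window also holds CREB letters but is not shown, and a link between letters and levels was not tested. The 3 are Dusp5, whose level varied widely between libraries, Dusp1, high in the same libraries, and Fos, which had the highest fold change. Each is the stretch of 250 bases before the RefSeq start (for Dusp1 the whole window, and for Dusp5 its end, lies inside the gene as the files bound it) in build GRCm38.p6, read on the strand of the gene. Capitals mark matches to the SRF CArG box, the CRE core TGACG, or the palindromic CRE TGACGTCA, which contains the core on both strands.
Dusp5, chr19:53528895-53529144, plus strand: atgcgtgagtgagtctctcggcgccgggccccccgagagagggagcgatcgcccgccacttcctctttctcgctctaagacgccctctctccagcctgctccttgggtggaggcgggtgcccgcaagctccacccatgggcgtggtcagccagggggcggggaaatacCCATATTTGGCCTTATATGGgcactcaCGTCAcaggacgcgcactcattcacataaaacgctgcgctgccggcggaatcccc
Dusp1, chr17:26508473-26508722, minus strand: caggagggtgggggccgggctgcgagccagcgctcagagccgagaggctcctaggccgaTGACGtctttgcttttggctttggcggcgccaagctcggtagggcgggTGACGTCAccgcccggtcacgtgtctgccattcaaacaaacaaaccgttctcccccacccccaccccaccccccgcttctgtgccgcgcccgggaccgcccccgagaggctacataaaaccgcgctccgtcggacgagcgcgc
Fos, chr12:85473640-85473889, plus strand: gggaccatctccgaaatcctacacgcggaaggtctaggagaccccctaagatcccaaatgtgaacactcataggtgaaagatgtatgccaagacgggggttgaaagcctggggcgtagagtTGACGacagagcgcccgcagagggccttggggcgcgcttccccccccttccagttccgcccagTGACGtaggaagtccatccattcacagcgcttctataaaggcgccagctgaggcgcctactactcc

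SRF is the factor through which ERK and actin signals reach many immediate early genes, and CREB binds the CRE. The Dusp5 window held 2 CArG boxes side by side, CCATATTTGG from 82 to 73 bases and CCTTATATGG from 72 to 63 bases before the start. The 9 windows searched are those of all the genes but Egr1. Of these 9, the Dusp5 window alone held a CArG box, and 1.47% of all 32851 promoters in the table did. Only 250 bases were searched, so a window without a match does not mean that the gene, Fos included, lacks a site further away. The CRE core on either strand occurred in 4 of the 9, those of Dusp1, Dusp5, Spred2 and Fos, and in 17.8% of all promoters. The palindromic CRE occurred in the Dusp1 window, at 143 to 136 bases before the start, and in 1.55% of all promoters. The letters GCGNGGGCG, an EGR motif, were found in the Dusp2 window and in 4.7% of all promoters. The ETS letters CCGGAA, the AP-1 letters TGANTCA and the STAT letters TTCNNNGAA were searched on both strands and occurred in 0 of the 9 windows, against 12%, 6.75% and 7.02% of all promoters. A match is a description of letters in a short window and not a bound site.

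The libraries held 48953174 to 60382588 counts, so that 3 counts, the limit that a count of 0 allows, came to 0.0465 to 0.0627 CPM, for counting error only. CPM are read counts scaled to library size, here and below after TMM normalization, which corrects for library composition. The labels call the cells a murine pre-B-cell, but the 12 myeloid progenitor markers summed to 2077 to 4986 CPM and the 7 pre-B markers analysed to 19.0 to 26.0 CPM. Rag1, which recombines antigen receptor genes, had 0 to 4 counts. Kit, a progenitor receptor, also had 0 to 4 counts. Abl1 stood at 20.5 and 40.9 CPM in the Abl1ko/IL3+ libraries and at 32.3 and 38.9 CPM in the Abl1ko/IL3- libraries. The edit is present in both groups and need not remove the transcript, so this level checks neither label. The libraries differed in lineage genes: 7 erythroid markers summed to 478.8 and 11625 CPM with IL-3 and to 5130 and 2729 CPM without it. In bulk RNA, fewer cells of a type and less RNA per cell cannot be told apart.

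None of these genes passed the test between cells without and with IL-3. Of the 9 genes that passed the filter on low counts, 0 had an adjusted p under 0.05 in edgeR's quasi-likelihood test, as did 0% of the 16535 genes tested. An unadjusted p under 0.05 was reached by 0 of the 9 and by 5.91% of all genes. DESeq2's Wald test, which called 1.64% of all genes at an adjusted p under 0.05, also called 0 of the 9. The median log2 fold change of the 9 without against with IL-3 was 0.21, with 5 values above 0 and 4 below, and that of all genes was -0.027. Its direction was not stable: it was -0.071 without Abl1ko/IL3+ replicate 2 and -0.27 over the 7 genes with a mean of 100 counts or more. The groups did not overlap for 1 gene that was higher without IL-3 (Fos) and 2 that were lower (Spred1 and Spred2). Among all genes tested 19.4% and 17.9% showed these patterns. With 2 libraries against 2, an exact two-sided permutation test of a single gene cannot go below p = 0.333.

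**Figure D1:**
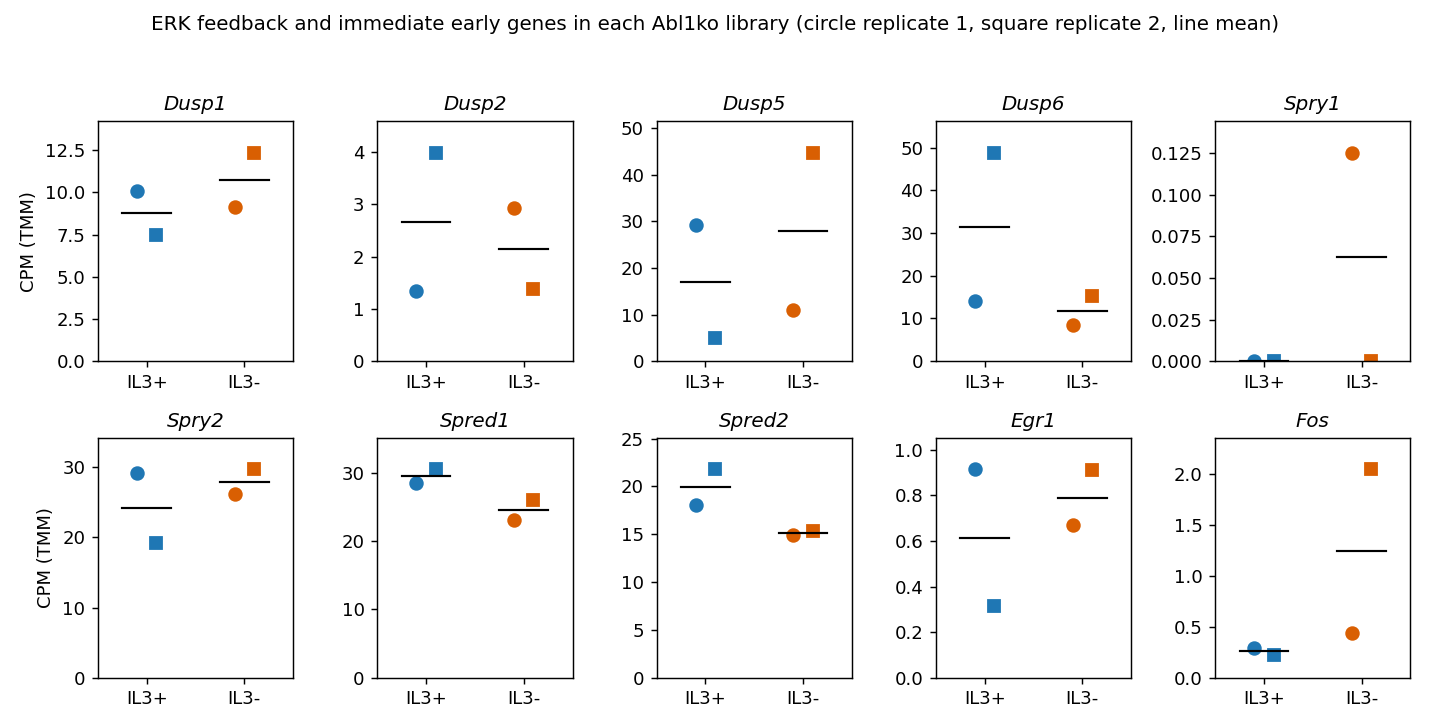
CPM (vertical axis, linear from 0, TMM-normalized) of each of the 10 genes in the 4 libraries, with IL3+ in blue and IL3- in orange, circles for replicate 1, squares for replicate 2 and a line at the group mean. Dusp5 ranged from 4.89 to 44.8 CPM and its groups overlapped, while both orange points of Spred1 and Spred2 lie below the blue ones.

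Compared per gene length, as FPKM, the genes formed an order in which most neighbours overlapped. Spry2 was highest at 11.2 ± 2.80 FPKM (SD, n = 4, both groups), followed by Dusp5 at 8.38 ± 6.99 and Dusp6 at 5.91 ± 4.50. Spred1, Spred2 and Dusp1 came next at 3.53 ± 0.468, 3.35 ± 0.508 and 2.63 ± 0.714 FPKM. Dusp2 had 1.03 ± 0.473 FPKM. Fos and Egr1 were lower, at 0.286 ± 0.348 and 0.140 ± 0.0640 FPKM, and Spry1 was last at 0.00866 ± 0.0173 FPKM. Neighbours in this order had overlapping ranges over the libraries, except Dusp1 and Dusp2 (1.80 to 3.44 against 0.627 to 1.59 FPKM) and Egr1 and Spry1 (0.0556 to 0.194 against 0 to 0.0347 FPKM).

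Of the 9 tested genes, Dusp6 had the lowest level without IL-3 relative to the level with it, but 1 Abl1ko/IL3+ library stood far above the rest. Dusp6 (ENSMUSG00000019960, chromosome 10, 99263231 to 99267489, plus strand, 4 exon blocks) had 14.2 and 48.9 CPM in Abl1ko/IL3+ replicates 1 and 2 and 8.50 and 15.2 CPM in Abl1ko/IL3- replicates 1 and 2. Abl1ko/IL3+ replicate 2 stood alone, and replicate 1 lay between the Abl1ko/IL3- libraries, so the groups overlapped. Its log2 fold change was -1.41 (95% interval -3.24 to 0.42, adjusted p = 0.860 in edgeR). Without Abl1ko/IL3+ replicate 2 it was -0.26. Etv5, an ETS factor that is a common target of ERK signaling, was the listed gene whose profile over the 4 libraries was nearest to that of Dusp6, with a root mean square distance of 0.56 on the log2 scale among 74 genes. Etv5 counts of 49 and 373 with IL-3, against 26 and 49 in its absence, put the same library highest.

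Dusp5 showed the widest scatter of the well-expressed genes, and it ran across the groups rather than between them. Dusp5 (ENSMUSG00000034765, chromosome 19, 53529109 to 53542431, plus strand, 4 exon blocks) had 29.3 and 4.89 CPM with IL-3 and 10.97 and 44.8 CPM without it. Abl1ko/IL3+ replicate 1 and Abl1ko/IL3- replicate 2 were high and the other libraries low. The replicates differed 5.98-fold with IL-3 and 4.08-fold without it. Counting error was small beside these gaps: the 266 counts of Abl1ko/IL3+ replicate 2 have an exact 95% Poisson interval of 234.99 to 299.96 counts, and the 1889 of replicate 1 one of 1805 to 1976. A log2 fold change of 0.71 had a 95% interval of -1.996 to 3.41 (adjusted p = 0.969 in edgeR). It turned to -0.071 without Abl1ko/IL3+ replicate 2 and to -0.64 without Abl1ko/IL3- replicate 2. The gene with the nearest profile was Atf3, a stress-induced transcription factor, at a distance of 0.40. Atf3 was high in the same libraries as Dusp5, with 43 and 12 counts with IL-3, against 19 and 114 in its absence. Exons of Dusp5 share 547 bases with a gene on the other strand, and whether the counting used strand is not stated in the sources used here, so reads of the pair may be mixed.

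Dusp2, which is best known as an inducible phosphatase of activated leukocytes, had the opposite scatter at a low level. Dusp2 (ENSMUSG00000027368, chromosome 2, 127336159 to 127338376, plus strand) had 1.35 and 3.99 CPM with IL-3 and 2.93 and 1.38 CPM without it. Here Abl1ko/IL3+ replicate 2 and Abl1ko/IL3- replicate 1 were high, the libraries in which Dusp5 was low. For Dusp2 the log2 fold change was -0.31 (95% interval -2.32 to 1.70, adjusted p = 0.982 in edgeR). It became 0.67 without Abl1ko/IL3+ replicate 2 and 0.14 without Abl1ko/IL3- replicate 2.

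Dusp1 varied less. Dusp1 (ENSMUSG00000024190, chromosome 17, 26505590 to 26562128, minus strand, 6 exon blocks) had 10.1 and 7.47 CPM with IL-3 and 9.11 and 12.4 CPM without it. The groups overlapped, with the same libraries high as for Dusp5, at a gap of 1.35-fold with IL-3 and 1.36-fold without it. The fitted log2 fold change was 0.29 (95% interval -0.84 to 1.42, adjusted p = 0.971 in edgeR). Its exons share 11 bases with Ergic1 on the other strand.

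**Figure D2:**
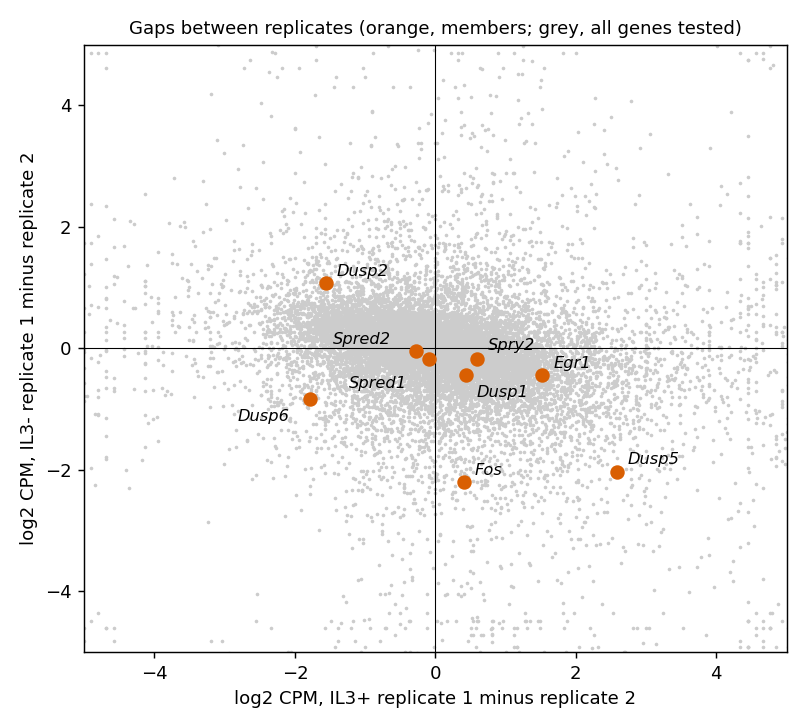
Gap between replicates in log2 CPM (replicate 1 minus replicate 2) with IL-3 on the horizontal axis and without IL-3 on the vertical axis, for the 9 tested genes (orange) and all 16535 genes tested (grey, those beyond 5 on either axis not drawn). Dusp5 lies far to the lower right and Dusp2 to the upper left, and 6 of the 9 genes have gaps of opposite sign.

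Replicate gaps of opposite sign were common among all genes tested, but large ones in both groups were not. For 6 of the 9 genes the replicate gaps had opposite signs in the groups, as for 62.9% of all genes tested. In 5 of them, Dusp1, Dusp5, Spry2, Egr1 and Fos, Abl1ko/IL3+ replicate 1 and Abl1ko/IL3- replicate 2 were the higher ones, and in Dusp2 the lower ones, as in 32.6% and 30% of all genes. Gaps of opposite sign and at least 1 on the log2 scale in both groups occurred in 2 of the 9, Dusp2 and Dusp5, against 7.48% of all genes. The median gap was 0.60 with IL-3 and 0.44 without it for the 9 genes, and 0.79 and 0.37 for all genes, in log2 units and without sign. The median log2 fold change without sign was 0.36 for the 9 genes and 0.43 for all genes.

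Sprouty and Spred genes encode membrane-linked inhibitors that act between receptors and RAF. Spry2 (ENSMUSG00000022114, chromosome 14, 105891947 to 105896819, minus strand) had 29.1 and 19.3 CPM with IL-3 and 26.2 and 29.7 CPM without it. The groups overlapped, with Abl1ko/IL3+ replicate 2 lowest. The log2 fold change was 0.21 (95% interval -0.78 to 1.195, adjusted p = 0.9753 in edgeR), and -0.058 without that library. Mrtfa, a coactivator of SRF, had the nearest profile to Spry2, at a distance of 0.042. It stood at 57.7 and 38.5 CPM with IL-3 and at 48.6 and 57.1 CPM without it.

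Spry1 (ENSMUSG00000037211, chromosome 3, 37639947 to 37644598, plus strand) was not detectable in 3 of the 4 libraries. Both Abl1ko/IL3+ libraries and Abl1ko/IL3- replicate 2 had 0 counts, and Abl1ko/IL3- replicate 1 had 6. It did not pass the filter on low counts and was not tested. The limit of 3 counts came to 0.0465 to 0.0552 CPM in these 3 libraries, and the library with 6 counts had 0.125 CPM. Exons of Spry1 share 710 bases with Gm42922 on the other strand. Of the Sprouty pair, Spry2 was thus the one with reads in every library.

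Spred1 and Spred2 were the genes with the steadiest levels, and both were lower in the 2 Abl1ko/IL3- libraries than in either Abl1ko/IL3+ library. Their products bind RAS and bring it together with neurofibromin, which inactivates RAS. Spred1 (ENSMUSG00000027351, chromosome 2, 117121374 to 117182279, plus strand, 7 exon blocks) had 28.6 and 30.6 CPM with IL-3 and 23.1 and 26.1 CPM without it. Its log2 fold change was -0.27 (95% interval -1.12 to 0.59, adjusted p = 0.959 in edgeR). Spred2 (ENSMUSG00000045671, chromosome 11, 19924375 to 20024026, plus strand, 8 exon blocks) had 18.1 and 21.8 CPM with IL-3 and 14.9 and 15.4 CPM without it. Its log2 fold change was -0.40 (95% interval -1.33 to 0.54, adjusted p = 0.933 in edgeR). The groups did not overlap for either gene, yet neither difference passed the test, and 17.9% of all genes tested showed the same pattern. The values stayed below 0 without any 1 library, from -0.35 to -0.18 for Spred1 and from -0.51 to -0.25 for Spred2. The genes were each other's nearest in profile, at a distance of 0.10.

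**Figure D3:**
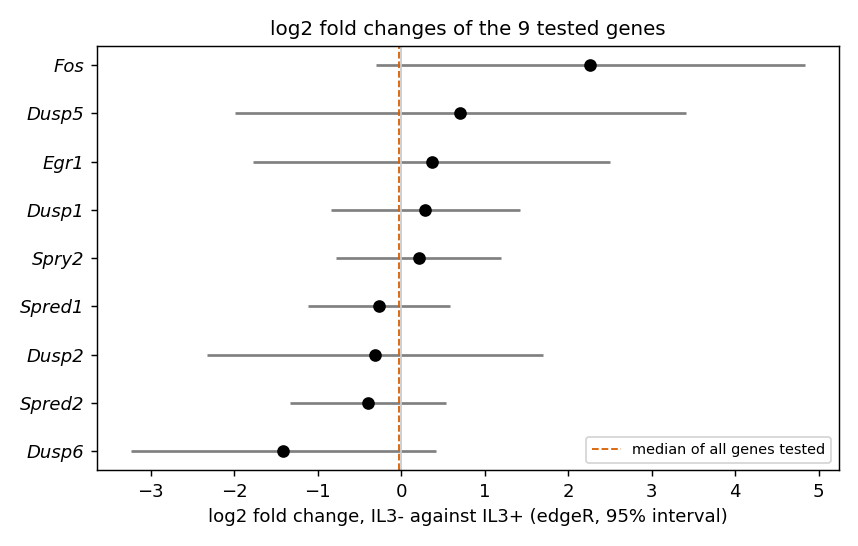
Log2 fold change of IL3- over IL3+ (horizontal axis, points) with its 95% interval from edgeR (lines) for the 9 tested genes, and the median of all genes tested (dashed). Every interval includes 0, from Dusp6 at -1.41 to Fos at 2.26.

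Fos had the highest fold change of the 9 tested genes, with 1 library far above the other 3. Fos encodes a subunit of the AP-1 factor and is a classic immediate early gene. Fos (ENSMUSG00000021250, chromosome 12, 85473890 to 85477273, plus strand, 4 exon blocks) had 19 and 12 counts with IL-3, against 21 and 119 in its absence, or 0.295 and 0.221 CPM against 0.439 and 2.05 CPM. Both Abl1ko/IL3- libraries were above both Abl1ko/IL3+ libraries, but the gap was within counting error for replicate 1, since its 21 counts have an exact 95% Poisson interval of 13.0 to 32.1 counts and the 19 of Abl1ko/IL3+ replicate 1 one of 11.4 to 29.7. Its log2 fold change was 2.26 (95% interval -0.31 to 4.83, adjusted p = 0.854 in edgeR) and 0.77 without Abl1ko/IL3- replicate 2. Fosb, the paralog of Fos, had the nearest profile, at a distance of 0.26.

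Egr1, a zinc finger factor induced through SRF and ETS proteins, was low in every library, and its groups overlapped. Egr1 (ENSMUSG00000038418, chromosome 18, 34859823 to 34864984, plus strand) had 59 and 17 counts with IL-3, against 32 and 53 in its absence. In CPM these were 0.915 and 0.313 against 0.669 and 0.913. Abl1ko/IL3+ replicate 2 was lowest, and the other libraries lay near each other. For Egr1 the log2 fold change was 0.36 (95% interval -1.78 to 2.50, adjusted p = 0.980 in edgeR), and -0.21 without that library.

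The other genes of the pathway were read from lists in the same fit, and 0 genes of any list had an adjusted p under 0.05. In the list of other immediate early genes, 22 of the 26 analysed passed the filter, 16 with a log2 fold change above 0 and 6 below, and the median was 0.35. The groups did not overlap for 6 that were higher without IL-3 (27.3%, beside 19.4% of all genes) and 1 that was lower, Myc (4.55%, beside 17.9%). The 4 of the 6 with the largest log2 fold changes were Nr4a1, Fosb, Nr4a3 and Fosl2. Nr4a1, an orphan nuclear receptor, was at 18 and 0 counts with IL-3, against 20 and 54 in its absence, a log2 fold change of 2.24 (standard error 1.66). Fosb counts were 27 and 11 with IL-3, against 29 and 127 in its absence, a log2 fold change of 2.16. The nearest libraries of the groups were thus close in counts, 18 against 20 for Nr4a1 and 27 against 29 for Fosb. Nr4a3, a relative of Nr4a1, was at 9 and 37 counts with IL-3, against 57 and 128 in its absence (log2 fold change 2.05). Fosl2, an AP-1 subunit, was the most abundant of the 4, with 27.7 and 11.8 CPM with IL-3 and 33.6 and 72.3 CPM without it (log2 fold change 1.42). Their adjusted p values ran from 0.85 to 0.91 in edgeR. Without Abl1ko/IL3- replicate 2, 7 of the 22 were higher and 7 lower, beside 30.7% and 30% of all genes. Without Abl1ko/IL3- replicate 1, 15 were higher, beside 28.6%, and without Abl1ko/IL3+ replicate 1 or 2, 10 were higher, beside 39.5% and 41%.

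One of the Abl1ko/IL3- libraries stood out for the immediate early genes. Abl1ko/IL3- replicate 2 was the highest library for 15 of the 22 other immediate early genes (68.2%) and for 16.8% of all genes tested. Among the 9 genes examined here, 2 libraries shared the highest values. Abl1ko/IL3+ replicate 2 was highest for Dusp2, Dusp6, Spred1 and Spred2 (4 of 9 or 44.4%, beside 28.3% of all genes tested). Abl1ko/IL3- replicate 2 was highest for Dusp1, Dusp5, Spry2 and Fos (4 of 9 or 44.4%, beside 16.8%). It was lowest for 0 of the 9, beside 14.7% of all genes tested. Junb and Jund were abundant in all libraries, from 56.3 to 93.9 and from 85.4 to 162 CPM, whereas Jun had 0 to 15 counts. Markers of mature granulocytes also had their highest sum in this library: the 10 genes summed to 944.3 and 358.3 CPM with IL-3 and to 963.1 and 5455 CPM without it, with Ngp alone at 4003 CPM in the last. Of the 9 tested, 5 were higher without IL-3 with separate groups, beside 19.4% of all genes. Mmp9 and Cxcr2 had log2 fold changes below 0 (-0.33 and -0.91) and overlapping groups. Mmp8 had 0 counts in both libraries with IL-3 and more in Abl1ko/IL3- replicate 1 (18) than in replicate 2 (7). The 6 macrophage markers summed to 313.7 and 59.4 CPM with IL-3 and 101.2 and 228.7 CPM without it. Their part in the level of Fos and its relatives was not tested. Heat shock and handling stress genes summed to 2557 and 4246 CPM with IL-3 and 3169 and 2933 CPM without it, and the stress-inducible Hspa1a and Hspa1b had 0 to 10 counts in every library. With separate groups, Gadd45a, a stress-induced growth arrest gene, had 41.6 and 45.4 CPM with IL-3 and 62.9 and 92.1 CPM without it, and the chaperone gene Dnajb1 was lower, at 68.2 and 77.1 against 37.9 and 48.6 CPM. Each was 1 of 10 tested in its direction (10%, beside 19.4% higher and 17.9% lower of all genes), which is no result about the list. Gadd45b, by contrast, had a log2 fold change of -0.86 and overlapping groups.

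**Figure D4:**
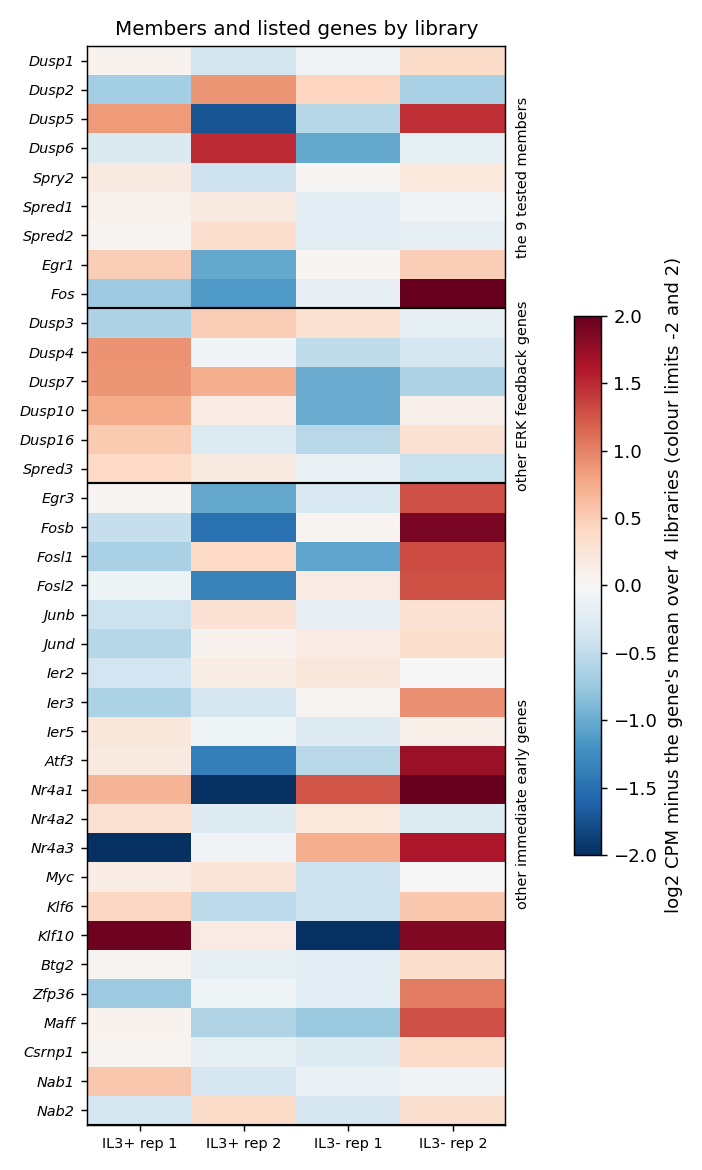
Colour scale of log2 CPM minus the mean of the gene over the 4 libraries (columns) for the 9 tested genes, 6 other ERK feedback genes and 22 other immediate early genes (rows). For 15 of the 22 immediate early genes the IL3- replicate 2 column holds the highest value of the row, and the feedback genes Dusp4, Dusp7, Dusp10 and Spred3 are each lower in both IL3- columns than in either IL3+ column.

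The other feedback genes stood the other way. Of the 10 analysed, 6 passed the filter, and their median log2 fold change was -0.70. In 4 of the 6 (66.7%) both Abl1ko/IL3- libraries were below both Abl1ko/IL3+ libraries, beside 17.9% of all genes, and in 0 of them above. The 4 were Dusp7, Dusp4, Dusp10 and Spred3. Dusp7, the cytoplasmic relative of Dusp6, had 10.66 and 9.49 CPM with IL-3 and 2.88 and 3.77 CPM without it, a log2 fold change of -1.60 (unadjusted p = 0.0175, adjusted p = 0.73 in edgeR). Dusp4, a nuclear phosphatase induced by ERK, had 21.1 and 10.96 CPM with IL-3 and 7.94 and 8.98 CPM without it (log2 fold change -0.92). Dusp10, which prefers p38 and JNK, had 7.76 and 5.13 CPM with IL-3 and 2.32 and 4.94 CPM without it (log2 fold change -0.83), so its groups were barely apart. Spred3 had 2.81 and 2.43 CPM with IL-3 and 1.94 and 1.57 CPM without it (log2 fold change -0.58). Leaving out any 1 library gave 4 or 5 of the 6 lower, beside 25.9% to 40.3% of all genes. Together with Spred1 and Spred2, these are the feedback genes with separate groups, and all of them lay on the low side without IL-3. Those with overlapping groups went both ways. Dusp1, Dusp3, Dusp5 and Spry2 had log2 fold changes above 0 (0.29, 0.031, 0.71 and 0.21). Dusp2, Dusp6 and Dusp16 had values below 0 (-0.31, -1.41 and -0.24). The list was chosen with earlier results of these data known, so the shared direction is a description and not a test. Spry4, Il17rd, Errfi1 and Dusp8 had at most 16 counts in any library.

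Genes upstream and downstream of ERK varied in both directions. Of 18 core cascade genes tested, 2 were higher without IL-3 with separate groups, Nf1 and Araf (11.1%, beside 19.4% of all genes), and among those lower was Ptpn11. Araf, a RAF kinase, had 49.9 and 32.0 CPM with IL-3 and 90.01 and 53.7 CPM without it, and Ptpn11, the phosphatase SHP2, had 141.3 and 134.4 against 90.9 and 98.4 CPM. Nf1, the neurofibromin that Spred proteins recruit, had 26.5 and 4.32 CPM with IL-3 and 27.1 and 32.2 CPM without it (log2 fold change 0.94). Of 12 effectors tested, Creb1 and Elk4 were higher without IL-3 with separate groups (16.7%), and Rps6ka3, Rps6ka4 and Srf lower (25%, beside 17.9% of all genes). These shares are near those of all genes and are no result about the lists. Creb1, which encodes a factor known to bind CRE sequences, had 4.44 and 8.85 CPM with IL-3 and 43.1 and 41.6 CPM without it, a log2 fold change of 2.67 (unadjusted p = 0.00273, adjusted p = 0.692 in edgeR). Rps6ka3, the kinase RSK2 that ERK activates, had 79.6 and 11.6 CPM with IL-3 and 8.92 and 9.68 CPM without it (log2 fold change -2.29). Rps6ka4, the related kinase MSK2, had 11.9 and 6.90 CPM with IL-3 and 2.15 and 4.34 CPM without it, and Elk4, an ETS partner of SRF, had 45.7 and 57.5 against 103.8 and 78.5 CPM. Among 8 ERK output genes, Emp1 was the one with separate groups (12.5%, beside 19.4%), at 12 and 15 counts with IL-3, against 18 and 22 in its absence.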

How the data were processed

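Total RNA depleted of ribosomal RNA was sequenced on the Illumina HiSeq platform from 2 Abl1ko/IL3+ and 2 Abl1ko/IL3- libraries. By their methods, the authors used Rsubread for alignment to GRCm38 and featureCounts for gene counts, and the files they deposited hold raw counts and FPKM. Their processing notes also name STAR, Cuffdiff and mm10, so the tool behind the deposited FPKM values is uncertain. Versions and strand setting are not given in the sources used here. Among counts from 1 to 20, 57.7% to 59.9% were even, so single counts may not be independent molecules and the Poisson intervals may be too narrow. Both tables held the same counts. Library totals are given in the report.

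Counts were tested with edgeR 4.0.16 in R 4.3.3 (filterByExpr, TMM, quasi-likelihood F test, two-sided, Benjamini-Hochberg over 16535 genes, threshold 0.05). Each standard error is the log2 fold change over the root of F, and intervals use the t distribution of the fit. Alternatives were DESeq2 1.42.0, other scalings and filters, limma 3.58.1 on log2(FPKM + 1) and log2(FPKM + 0.1), the replicate block, and leaving out each library. The steps were tested on simulated data, where recovery of added changes was required only at a low spread between replicates. That run does not show what could be detected at the spread of these libraries. Groups, and replicate numbers, come from the labels. No source says that the 2 libraries of a group were separate clones, so p-values measure the spread between these libraries, which may be technical. No pair of libraries agreed within sampling noise by a chi-square test.

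The genes and lists were chosen with earlier results of these data known. The rule named all 10 genes, up to 4 genes per list with the largest log2 fold change among those with separate groups, and the gene nearest in profile for the 3 highest genes. Other names (Myc, Srf, Jun, Junb, Jund, markers, the nearest genes of Fos and Spred1 and the genes near 0) were chosen after their values were seen. Gene positions come from the files, and 21551 of the 23756 genes have the same position in GENCODE release M21, from which exons were read. Promoters come from RefSeq in GRCm38.p6, and 9 were searched. A result of the core cascade list is not reported here.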

Additional observations from a re-analysis of the deposited data

How the results depend on the processing

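The number of these genes past the threshold was 0 in every alternative run: DESeq2, library size only, upper quartile scaling, no filter, 10 counts in every library, both limma fits, an adjusted p under 0.1, and each library left out. It was also 0 with the replicate block, with a median log2 fold change of 0.24 for the 9 genes (0 genes called of all tested, 548 at an unadjusted p under 0.05), and with the numbers crossed, a pairing added after seeing the data because deviations of same-numbered libraries correlated at -0.18 over 16535 genes (median 0.24, 0 called, 1136 unadjusted). The labels do not say whether same-numbered libraries share a clone, guide or batch, and this correlation, from 1 replicate gap per group, cannot settle it. Among all genes, 271 were called by DESeq2. Leaving out 1 library gave 0 to 15 calls, the 15 without Abl1ko/IL3- replicate 1, and the lone library is then assumed to vary like the other group. The median of the 9 genes ranged from -0.071 (without Abl1ko/IL3+ replicate 2) to 0.54 (without Abl1ko/IL3+ replicate 1), and for the 7 genes with a mean of 100 counts or more, a choice made after seeing the data, it was -0.27. Genes of the 9 with separate groups numbered 1 to 5 higher and 2 to 4 lower without 1 library: 5 and 4 without Abl1ko/IL3+ replicate 1 (39.5% and 37.7% of all genes), 2 higher without Abl1ko/IL3+ replicate 2 (41%) and 4 higher without Abl1ko/IL3- replicate 1 (28.6%). Over these 4 fits the log2 fold change of Dusp2 ranged from -0.95 to 0.67, of Dusp5 from -0.64 to 2.53, of Egr1 from -0.21 to 1.35 and of Spry2 from -0.058 to 0.55. Without Abl1ko/IL3+ replicate 2, Dusp2 was at 0.67, Dusp5 at -0.071 and Egr1 at -0.21, and without Abl1ko/IL3- replicate 2, Dusp2 was at 0.14 and Dusp5 at -0.64; the cause was not tested. Of 117 values of single genes, 6 changed sign, all without a library, and 0 passed the threshold. Dusp1, Dusp6, Fos, Spred1 and Spred2 kept their sign. With 2 libraries a group, the intervals of the report set what could be seen: each of the 9 includes a 2-fold difference in at least 1 direction.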
